A study of Homo sapiens with 18 samples.

Results

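The genes described here are 42 interferon-stimulated genes of varied function, taken by gene symbol from the 62754 gene rows of the count table. They are induced by type I and type III interferon in most cell types but stand outside the OAS, MX, IFIT, guanylate-binding, ISG15 and antigen-presentation families. They were read in all 18 libraries of an RNA-seq study of EA.hy926, a line made by fusing human umbilical vein endothelial cells with A549 lung epithelial cells. Every culture carried 1 of 3 transfections. Mock cells received the transfection reagent with no siRNA, siNT cells received 10 nM of a non-targeting siRNA, and siELMO1 cells received 10 nM of a pool of siRNAs against ELMO1, which encodes an activator of the small GTPase RAC1. All cultures were placed in low serum, and 48 h after transfection they were harvested untreated (0 h) or after 24 h with 1 µg/ml poly(I:C), a synthetic double-stranded RNA that activates Toll-like receptor 3. No group was kept for those 24 h without poly(I:C). Effects of poly(I:C) and of the further 24 h after transfection therefore cannot be told apart. Each of the 6 groups held 3 biological replicates. The cells are a hybrid tumor line kept in culture, so endothelium in a vessel is represented only in part.

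Double-stranded RNA is sensed in the endosome by TLR3 and in the cytoplasm by RIG-I and MDA5, and these sensors switch on interferon beta and interferon lambda. Secreted interferon binds its receptors, the kinases JAK1 and TYK2 are activated, and the complex ISGF3, whose DNA-binding part is IRF9, binds the interferon-stimulated response element in the promoters of many genes. Many of the products act directly against viruses, by holding virions at the membrane, degrading viral RNA or emptying the nucleotide pool, and others tune the response itself.

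The core of the response element is the letters GAAANNGAAA, and the letters TTCNNNGAA are the core of another element of interferon-responsive promoters. Both were searched on both strands of RefSeq promoter windows of GRCh38.p14, which hold 250 bases before and 50 bases after each annotated start. A match to one can share letters with a match to the other. Of the 42 genes, 34 had a window, and GAAANNGAAA was found for 20 of these 34 (58.8%) and for 4.38% of all 27305 genes with a window. TTCNNNGAA was found for 11 of the 34 (32.4%) and for 9.38% of all genes, 7 of the 34 held both and 10 held neither. LY6E, APOL1, APOL2, APOL3, APOL6, ETV7, PARP10 and PML were without a window. The 30 bases around the match nearest to the start are shown for 8 of the genes described below, because they show the letters that 20 of the 34 genes have in common. Each is read 5′ to 3′ on the strand of the gene, with the match in capitals.
BST2 (chr19:17405735-17405764, minus strand): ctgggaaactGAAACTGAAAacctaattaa
RTP4 (chr3:187368357-187368386, plus strand): accgaacaccGAAACTGAAActgtttgtct
IFI6 (chr1:27672266-27672295, minus strand): gcagagtgcaGAAATAGAAActccgacagg
SAMD9 (chr7:93118096-93118125, minus strand): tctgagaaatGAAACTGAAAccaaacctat
PARP14 (chr3:122680800-122680829, plus strand): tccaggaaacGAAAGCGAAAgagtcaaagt
EIF2AK2 (chr2:37156967-37156996, minus strand): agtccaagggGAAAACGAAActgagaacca
LGALS3BP (chr17:78979962-78979991, minus strand): gtggtttctgGAAATCGAAAgtagactctt
IFI44 (chr1:78649761-78649790, plus strand): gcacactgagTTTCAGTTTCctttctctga
The IFI44 match lies on the opposite strand and so reads as the reverse complement. BST2, RTP4 and SAMD9 carry the same 10 letters, and so does IFI44 when read on that opposite strand. IFI6 has 3 matches in its window and BST2 and RTP4 have 2, and the ones shown begin 93, 124 and 18 bases before the start. Neither core was found in the windows of XAF1, BATF2, SAMHD1, SAMD9L, HELZ2 and IFI16, all of which rose after poly(I:C). In Mock cells the median log2 rise was 3.53 over the 19 tested genes with GAAANNGAAA and 3.41 over the 13 tested genes with a window that lacks it, a description with no test. These medians were 2.90 and 2.35 in siNT and, in the reverse order, 3.38 and 3.68 in siELMO1.

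The libraries held 40.4 to 73.9 M (mega) estimated counts. ELMO1 was at 3.04, 2.99 and 3.03 CPM in Mock, 2.85, 2.66 and 3.32 in siNT and 0.299, 0.301 and 0.419 in siELMO1 at 0 h, and at 24 h 1.52, 2.98 and 2.45 CPM in Mock, 3.38, 2.98 and 3.59 in siNT and 0.288, 0.155 and 0.360 in siELMO1, where CPM, the counts per M counts of the library, was scaled by TMM factors. Every siELMO1 library was below every other library. Of 12 endothelial markers 10 reached 1 CPM, all but CLDN5 and EMCN, and the summed endothelial level was 1308 to 1563 CPM in Mock and siNT and 2009 to 2111 CPM in siELMO1 at 0 h, and 1165 to 1594 and 1993 to 2400 CPM at 24 h. Single markers did not all follow the sum. At 0 h the means in Mock, siNT and siELMO1 were 353, 438 and 777 CPM for CDH5 but 207, 311 and 209 CPM for EGFL7. The summed level of 6 epithelial markers, led by keratins 7, 8 and 18, was 1519 to 2227 CPM at 0 h and 843 to 1316 CPM at 24 h, with CDH1 at 0. The 6 leukocyte markers summed to at most 7.70 CPM with CD3E at 0, and the 6 fibroblast and mural markers to 39.3 to 78.1 CPM in Mock and siNT and 77.8 to 89.4 CPM in siELMO1, with DCN and LUM at 0. The part of these marker differences in the results below was not tested, and in bulk RNA fewer cells of a kind and less RNA per cell cannot be told apart.

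After poly(I:C), replicate 3 was the highest of its group for most of the genes, namely 33 of the 39 tested in Mock, 37 in siNT and 36 in siELMO1. The median ratio to the group mean was 1.13 in siNT replicate 3, against 0.951 and 0.909 in its other 2 libraries. At 0 h the library with the most of the genes at their highest led for 17 or 18 of 39. The 24 h comparisons are therefore also given without replicate 3 of a single group or with the replicate number as a block. Leaving replicate 3 out of siNT alone lowers the siNT mean of most of the genes.

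All 39 genes that could be tested were higher after 24 h of poly(I:C) than at 0 h in all 3 transfections. In every case the lowest 24 h library was above the highest 0 h library of the same transfection. The genes with the largest rise were XAF1, a partner and inhibitor of XIAP, BST2, the tether that holds budding virions, RTP4, a chaperone of receptors, and IFI6, a small membrane protein of the endoplasmic reticulum. The smallest rises in Mock and siNT were those of SHISA5 and LY6E, while in siELMO1 SHISA5, IFI16, NMI and SP100 rose less than LY6E. CMPK2, ETV7 and EPSTI1 were under the limit on low counts and were not tested. BST2 and XAF1 reached that limit only because of the 24 h libraries, so their inclusion required a difference, whereas the other 37 reached it in the 0 h libraries alone. Calls are at a Benjamini-Hochberg adjusted p under 0.05 from the quasi-likelihood test of edgeR over 15167 genes, and the values after ± on log2 differences are standard errors.

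The number higher was 39 in Mock, where 30.7% of all tested genes were higher and 29.6% lower, 39 in siNT, where 28.6% were higher and 25.2% lower, and 39 in siELMO1, where 28.0% were higher and 26.9% lower. More than 2-fold higher were 38 in Mock, 37 in siNT and 38 in siELMO1, against 8.60%, 6.45% and 7.71% of all genes. The median log2 fold change of the 39 was 3.53 in Mock, 2.76 in siNT and 3.42 in siELMO1, and that of all genes was 0.01, 0.01 and 0.00. In Mock the largest medians among the groups with at least 3 tested genes were those of the transcription factors and their partners, namely BATF2, IFI35 and NMI (4.76), the apolipoprotein L genes (3.99) and the nucleotide pool and restriction genes (3.74), and the smallest was that of the nuclear body genes (2.14).

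**Figure D1:**
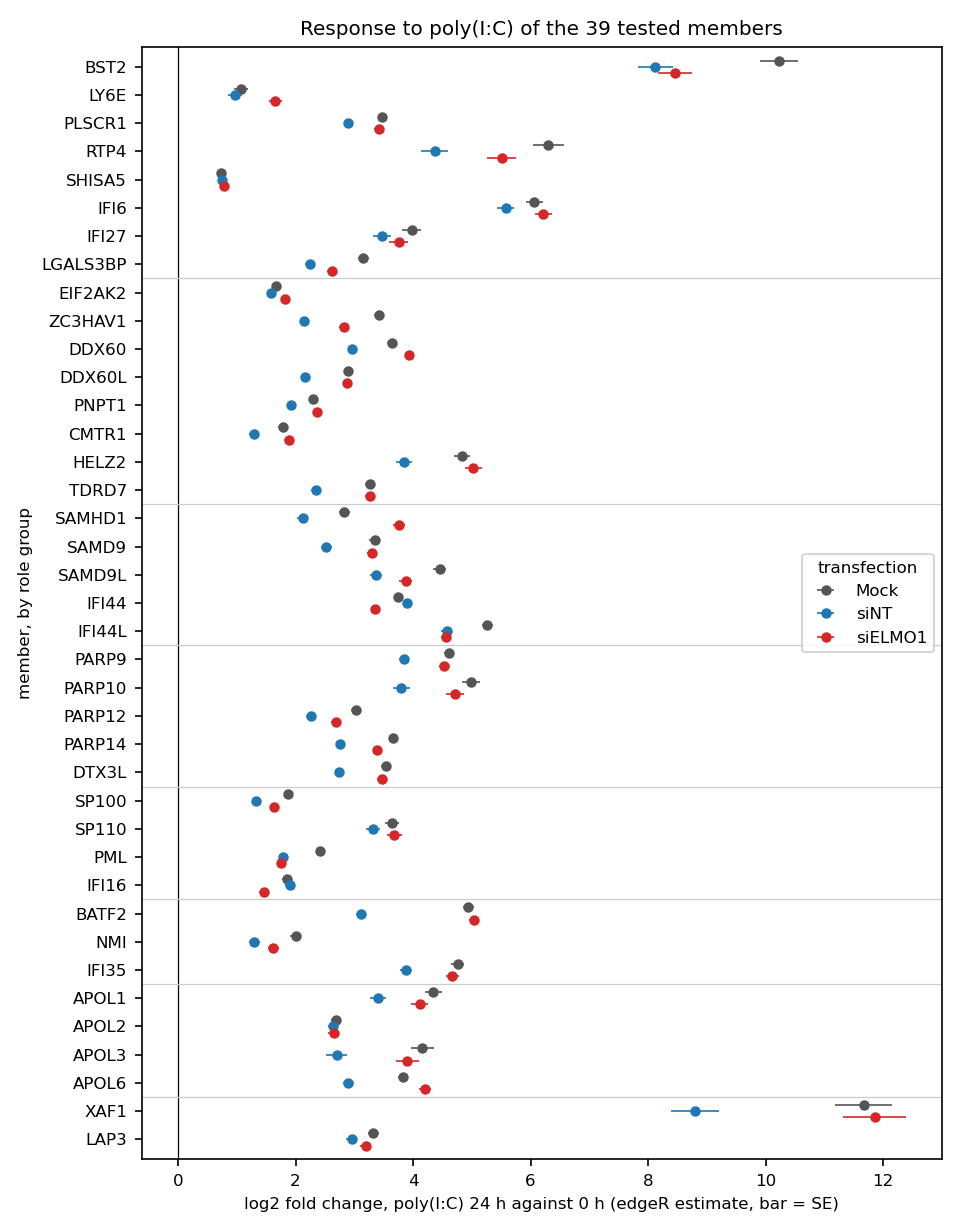
Log2 fold change of poly(I:C) at 24 h against 0 h (horizontal axis) for each of the 39 tested genes (vertical axis, grouped by role), with points for Mock, siNT and siELMO1 and bars for the standard error of the edgeR estimate from 3 libraries a group. All points lie to the right of 0, from 0.73 for SHISA5 in Mock upward, and for 34 of the 39 genes the siNT point lies to the left of the other 2.

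Before any poly(I:C), siNT and Mock cells already differed in most of the genes, by small amounts for all but a few. At 0 h, 21 of 39 were higher in siNT than in Mock and 4 were lower, where 27.6% and 24.0% of all genes were higher and lower, with a median of 0.27 against 0.03 over all genes. The share higher (21 of 39) stood above the background. The count lower depended on the fit, with 9 lower and 22 higher when only these groups entered it and 6 lower and 18 higher with library totals. Among the called genes BATF2, RTP4 and LGALS3BP had the largest increases, all 5 of the ADP-ribosylation genes and 6 of the 8 RNA-binding genes were higher, and IFI44, APOL2, IFI16 and SAMD9 were lower.

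With poly(I:C) the order was the other way around. In siNT 32 of 39 genes were lower than in Mock and 2 were higher, LGALS3BP and EIF2AK2, where 24.9% and 25.2% of all genes were lower and higher. The median was -0.49, against a value within 0.01 of 0 over all genes. BST2, SAMD9 and SAMD9L were more than 2-fold lower, and all tested genes of the nucleotide pool, ADP-ribosylation, nuclear body and apolipoprotein L groups were lower. Without siNT replicate 3 the counts were 33 lower and 1 higher, and without Mock 24 h replicate 3 they were 31 lower and 1 higher. Over the 24 h libraries alone, with the replicate number as a block, they were 35 lower and 2 higher. The study reports massive death of siNT cells after poly(I:C), with much less in Mock and significantly less apoptosis in siELMO1. It names cell death as the likely reason for the lower inflammatory gene expression in siNT. The part of cell death in the differences of siNT from Mock and of siELMO1 from siNT given here was not tested. The same holds for the differences in response that involve siNT.

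siELMO1 cells were compared with siNT cells to read the knockdown against an siRNA control. At 0 h 21 of 39 genes were lower in siELMO1 and 6 were higher, where 31.3% and 31.3% of all genes were lower and higher, with a median of -0.28 against 0.00. Among the called genes BATF2, APOL6 and HELZ2 had the largest decreases and IFI44, IFI16 and APOL2 the largest increases. After poly(I:C) 27 of 39 were higher in siELMO1 and none was lower, where 26.0% and 26.5% of all genes were higher and lower, with a median of 0.34 against -0.01. BST2, APOL1 and SAMHD1 had the largest differences. For the 12 genes not called, including all but IFI16 of the nuclear body group, log2 differences lay between -0.08 and 0.43. None of the 39 was lower at an unadjusted p under 0.05 in edgeR, and DESeq2 and limma-voom also called 0 lower, while library totals in place of TMM factors gave 1 lower. The count was 30 higher without siNT replicate 3 and 22 higher without siELMO1 replicate 3. These comparisons share the siNT libraries with those against Mock.

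Against Mock, siELMO1 cells had 8 genes higher and 10 lower at 0 h, where 27.9% and 22.4% of all genes were higher and lower, and the median was -0.08 against 0.04. Both shares of the 39 were near the background, and without TMM factors the split was 6 higher and 14 lower. At 24 h 2 were higher and 13 lower, where 21.6% and 22.0% of all genes were, with a median of -0.14 against -0.01. LGALS3BP and SHISA5 were higher, and SAMD9L, SAMD9 and SP110 had the largest decreases. This count of 15 depended on single libraries and on the design. It was 9 without siELMO1 replicate 2, 20 without siNT replicate 3 (a group outside this comparison) and 25 (5 higher and 20 lower) over the 24 h libraries with the replicate number as a block.

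**Figure D2:**
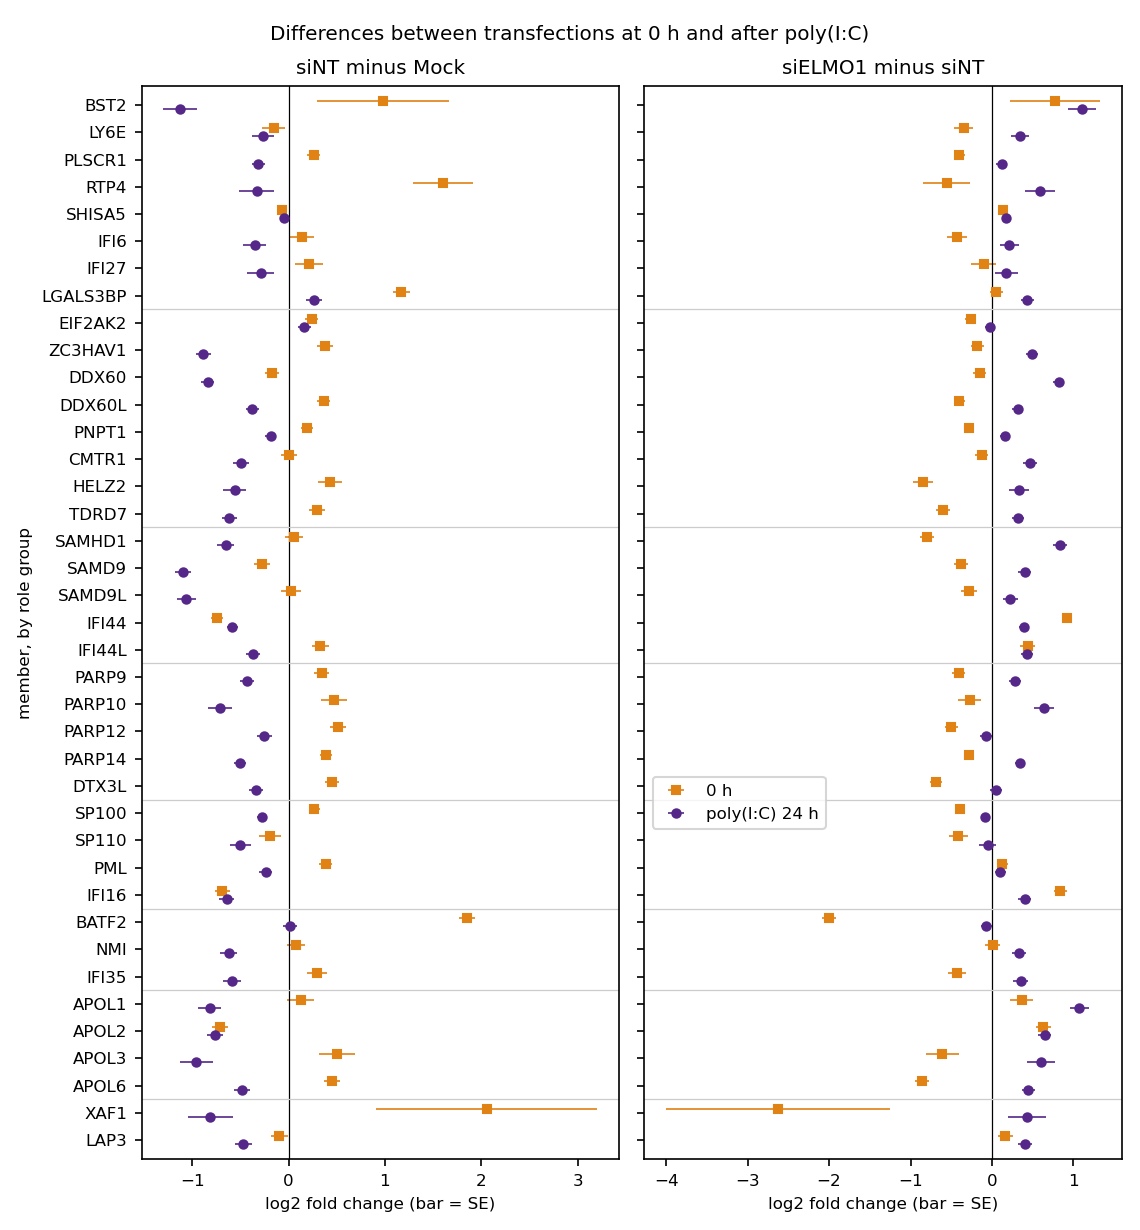
Log2 fold change of siNT against Mock (left) and of siELMO1 against siNT (right) for the 39 tested genes, at 0 h (squares) and after 24 h of poly(I:C) (circles), with bars for the standard error. On the left most squares lie to the right of 0 and most circles to the left, on the right the reverse, and both panels use the same siNT libraries. XAF1 at 0 h, with counts near 0, has the widest bars.

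The change of the poly(I:C) response between transfections was tested directly with an interaction term. The response was smaller in siNT than in Mock for 30 of 39 genes and larger for none (0 also at an unadjusted p under 0.05, and by DESeq2 and limma-voom, but 1 with library totals), where 16.0% and 15.0% of all genes were smaller and larger, with a median difference of -0.74 against -0.01. In siELMO1 it was larger than in siNT for 26 genes and smaller for 2, IFI44 and IFI16, where 16.7% and 17.8% of all genes were, with a median of 0.62 against -0.02. Relative to Mock, the siELMO1 response was larger for 4 genes (SAMHD1, LY6E, APOL6 and DDX60) and smaller for 11, where 13.8% and 14.6% of all genes were, with a median of -0.08 against -0.02. Without Mock 0 h replicate 2 the last counts were 2 and 7, and with library totals 5 and 7. The 3 differences share libraries and are not independent.

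Among the membrane and secreted proteins, all 8 were tested. BST2, also called tetherin, was close to absent at 0 h, at 0.183, 0.0811 and 0.166 CPM in Mock, 0.164, 0.444 and 0.255 in siNT and 0.626, 0.251 and 0.479 in siELMO1, which is 6 to 46 counts a library. At 24 h it stood at 166, 145 and 209.7 CPM in Mock, 67.5, 63.8 and 107 in siNT and 161, 159.7 and 193 in siELMO1. All siNT libraries were below all Mock and siELMO1 libraries at 24 h, and those of Mock and siELMO1 overlapped. BST2 was 2.18-fold lower in siNT than in Mock (log2 -1.13 ± 0.17, edgeR adjusted p = 3.74e-05) and higher in siELMO1 than in siNT by 1.10 ± 0.17 (edgeR adjusted p = 4.31e-05). At 0 h BST2 was higher in siELMO1 than in Mock by 1.75 ± 0.63 (edgeR adjusted p = 0.0271), a call on few counts that was lost with limma-voom (adjusted p = 0.328) and when siELMO1 0 h replicate 1 or 3 or Mock 0 h replicate 2 or 3 was left out.

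RTP4, the chaperone that also restrains flaviviruses, was at 0.749, 0.284 and 0.333 CPM in Mock, 1.36, 1.41 and 1.29 in siNT and 1.20, 0.427 and 0.979 in siELMO1 at 0 h. It rose to 36.1, 31.5 and 38.0 CPM in Mock, 27.1, 23.5 and 33.4 in siNT and 39.7, 39.3 and 47.1 in siELMO1. The siNT libraries were above all others at 0 h, and after poly(I:C) all siELMO1 libraries were above all others. The 0 h levels rest on 17 to 91 counts a library. At 0 h RTP4 was 3.03-fold higher in siNT than in Mock (log2 1.60 ± 0.31, edgeR adjusted p = 0.000299), and its response to poly(I:C) was smaller in siNT, with a log2 difference of -1.93 ± 0.36 (edgeR adjusted p = 0.000495). The higher 0 h level in siELMO1 than in Mock (1.04 ± 0.34) was not called with limma-voom, with only the groups compared in the fit, or when Mock 0 h replicate 2 or 3 or siELMO1 0 h replicate 1 was left out.

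IFI6 was the most abundant of the 42 genes per length of transcript after poly(I:C), at 1656 ± 119 CPM per kb in Mock, 1297 ± 147 in siNT and 1503 ± 170 in siELMO1 (mean ± SD, n = 3), ahead of IFI27, a mitochondrial and nuclear envelope protein, at 868 ± 83.1, 702 ± 80.5 and 786 ± 82.4. The order of the first 3 (IFI6, IFI27, PLSCR1) was the same in all 3 transfections at 24 h, and the gaps between them were larger than the SDs. Per gene, IFI6 was at 19.6, 19.0 and 22.5 CPM in Mock, 25.1, 20.6 and 21.4 in siNT and 20.0, 15.9 and 13.7 in siELMO1 at 0 h. It reached 1393, 1252 and 1441 CPM in Mock, 1045, 958 and 1197 in siNT and 1228, 1101 and 1380 in siELMO1. The siNT libraries were below all Mock libraries at 24 h (log2 -0.35 ± 0.12, edgeR adjusted p = 0.0179), and the rise of 6.06 ± 0.15 in Mock compared with 5.58 ± 0.14 in siNT and 6.22 ± 0.15 in siELMO1.

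LGALS3BP, a secreted glycoprotein that binds galectin-3, followed another pattern. It was at 31.5, 28.1 and 28.7 CPM in Mock, 65.5, 68.1 and 65.2 in siNT and 74.0, 68.6 and 63.6 in siELMO1 at 0 h. At 24 h it stood at 269, 240.3 and 278 CPM in Mock, 284, 294 and 366 in siNT and 420.5, 420.3 and 432 in siELMO1. Both siRNA groups were above Mock in every library at both times, and siELMO1 was above siNT in every library at 24 h. The gene was 2.25-fold higher in siNT and 2.34-fold higher in siELMO1 than in Mock at 0 h (log2 1.17 ± 0.08 and 1.22 ± 0.09, edgeR adjusted p = 3.95e-09 and 1.64e-09). At 24 h the difference of siELMO1 from Mock was 0.69 ± 0.08 (edgeR adjusted p = 2.21e-06), while that of siNT from Mock was 0.26 ± 0.08 and was no longer called without siNT 24 h replicate 3 (0.14, edgeR adjusted p = 0.0999), without Mock 24 h replicate 2 or with only these groups in the fit.

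SHISA5, an endoplasmic reticulum protein tied to p53-dependent death, had the smallest response. It was at 133, 129.9 and 134 CPM in Mock, 126, 128 and 125 in siNT and 137, 138 and 142 in siELMO1 at 0 h, and after 24 h at 213, 231 and 217 CPM in Mock, 209.8, 224 and 205 in siNT and 234, 249 and 235 in siELMO1. The siELMO1 libraries were above all others at both times. Its rise was 1.66-, 1.68- and 1.72-fold, and the interaction terms of 0.02 ± 0.06 for siNT against Mock and 0.03 ± 0.06 for siELMO1 against siNT were not called. The siELMO1 difference from Mock at 24 h (0.12 ± 0.04) was not called without TMM factors, with no limit on low counts, with only the groups compared, or without any 1 of Mock 0 h replicate 1, Mock 24 h replicates 1 and 3 and siELMO1 24 h replicate 2. LY6E, a membrane-anchored factor that blocks coronavirus entry, was at 59.9, 62.8 and 63.1 CPM in Mock, 55.1, 55.8 and 56.0 in siNT and 53.5, 38.9 and 38.1 in siELMO1 at 0 h, and after 24 h at 129.5, 122 and 139.5 CPM in Mock, 97.5, 97.6 and 131 in siNT and 136, 131 and 146 in siELMO1. At 0 h the LY6E libraries did not overlap between groups and rose in the order siELMO1, siNT, Mock, and its response was larger in siELMO1 than in Mock by 0.58 ± 0.16 (edgeR adjusted p = 0.0121). PLSCR1, a scramblase that blocks virus entry, rose by 3.47 ± 0.08 in Mock, 2.90 ± 0.07 in siNT and 3.42 ± 0.08 in siELMO1, and IFI27 rose by 3.98 ± 0.16, 3.48 ± 0.16 and 3.76 ± 0.16 with no call between transfections at either time.

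**Figure D3:**
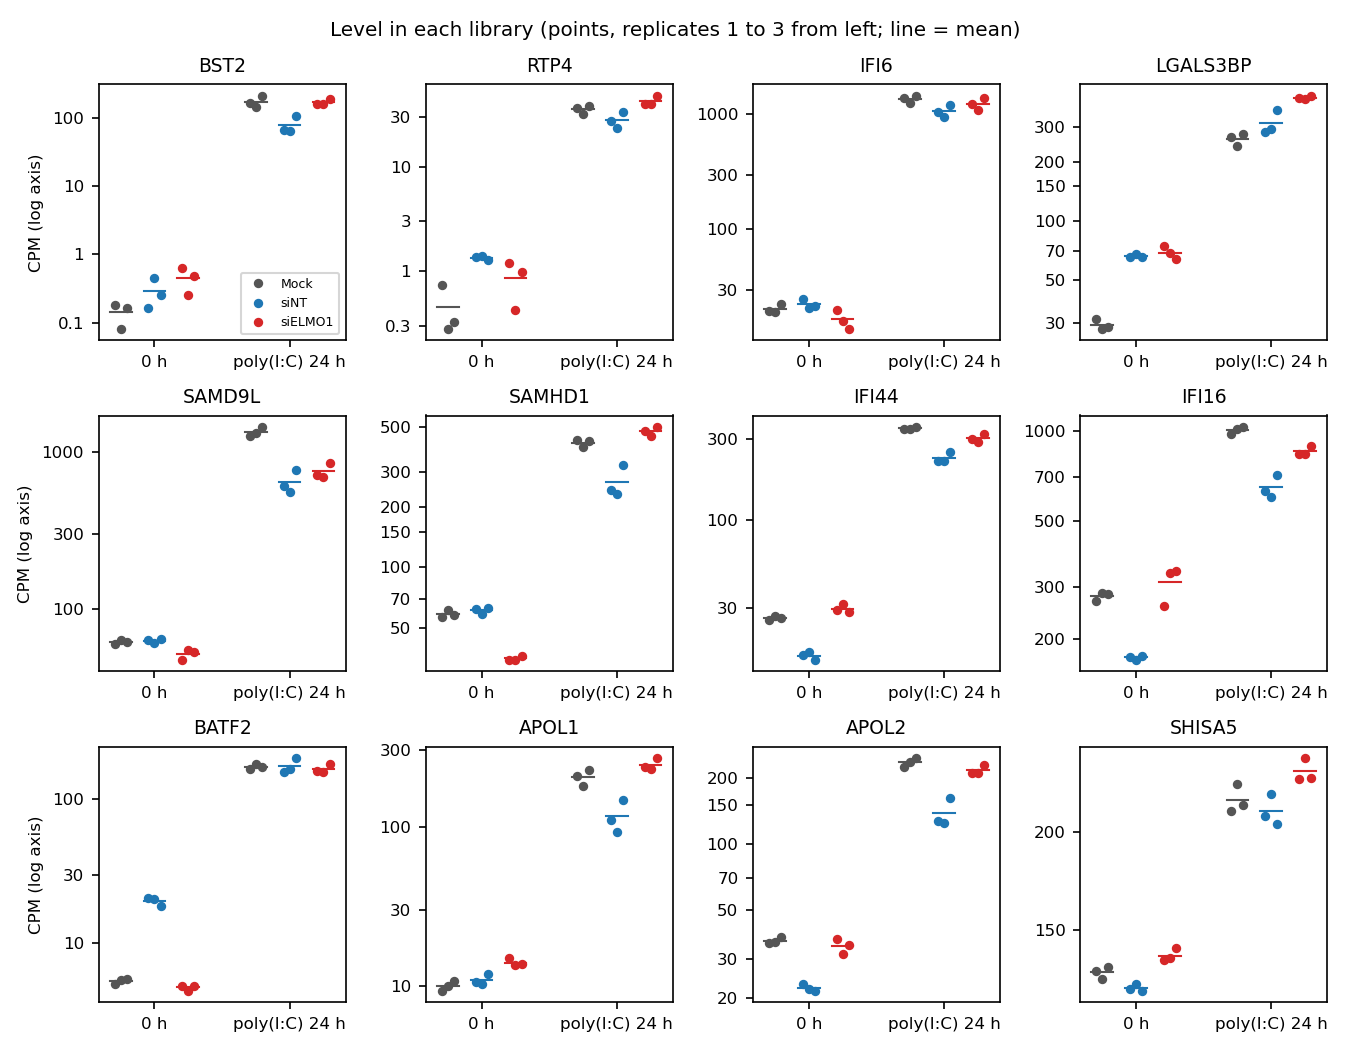
CPM on a log axis in each of the 18 libraries for 12 of the genes, at 0 h and after 24 h of poly(I:C), with a point for each of 3 replicates of Mock, siNT and siELMO1 and a line for the mean. BATF2 is high in siNT at 0 h and alike in all groups at 24 h, SAMHD1 is low in siELMO1 at 0 h and low in siNT at 24 h, and IFI44, IFI16 and APOL2 are low in siNT at both times.

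The 8 RNA-binding and RNA-processing proteins all rose, by a median of 3.08 in Mock, 2.16 in siNT and 2.85 in siELMO1. EIF2AK2, the kinase PKR that halts translation on double-stranded RNA, was at 154, 159 and 159 CPM in Mock, 189.8, 187 and 180.2 in siNT and 135, 164 and 166 in siELMO1 at 0 h. Its levels at 24 h were 495, 532 and 469.9 CPM in Mock, 577, 560.5 and 540 in siNT and 553, 551 and 542 in siELMO1. It was the only one of the 8 that was not below Mock in siNT at 24 h, with a difference of 0.16 ± 0.06 (edgeR adjusted p = 0.0417) that was lost with no limit on low counts and when any 1 of 9 libraries was left out, namely the 3 Mock 0 h libraries, Mock 24 h replicates 1 and 3, siNT 24 h replicates 1 and 2 and siELMO1 24 h replicates 1 and 2 (edgeR adjusted p up to 0.169).

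HELZ2, a helicase that coactivates nuclear receptors, was at 46.3, 48.5 and 41.4 CPM in Mock, 66.6, 55.0 and 62.1 in siNT and 41.7, 29.0 and 30.8 in siELMO1 at 0 h. It rose to 1287, 1256 and 1341 CPM in Mock, 825, 777 and 1034 in siNT and 1093, 1014 and 1209 in siELMO1. At 0 h siELMO1 was below siNT in every library (log2 -0.85 ± 0.12, edgeR adjusted p = 1.15e-05), and at 24 h it was higher by 0.33 ± 0.12 (edgeR adjusted p = 0.0274). The rise of 4.83 ± 0.14 in Mock was the largest of the 8, and the response was larger in siELMO1 than in siNT by 1.18 ± 0.17 (edgeR adjusted p = 4.04e-05).

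ZC3HAV1, the zinc finger antiviral protein that binds CpG-rich RNA, was lower in siNT than in Mock, with a log2 difference of -0.88 ± 0.08 at 24 h, and DDX60, a helicase that assists RIG-I, with a log2 difference of -0.84 ± 0.07. Both were higher in siELMO1 than in siNT (0.49 ± 0.08 and 0.82 ± 0.07), but ZC3HAV1 stayed below Mock in siELMO1, with a log2 difference of -0.40 ± 0.08 (edgeR adjusted p = 0.000488) while the DDX60 difference from Mock was -0.02 ± 0.07 and was not called. DDX60L, its neighbor and paralog, had a log2 difference of -0.37 ± 0.07 in siNT against Mock. PNPT1, the mitochondrial polynucleotide phosphorylase, CMTR1, the methyltransferase of the mRNA cap, and TDRD7, which limits autophagy, were lower in siNT, with log2 differences of -0.19 ± 0.06, -0.49 ± 0.08 and -0.61 ± 0.08. Reads of the pairs DDX60 and DDX60L, SAMD9 and SAMD9L, IFI44 and IFI44L and of the apolipoprotein L genes may be split between paralogs, and the use of strand in counting is not given in the sources used here.

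In the group of nucleotide pool and cytoplasmic restriction genes, SAMHD1, the enzyme that hydrolyzes dNTPs, showed the largest gain in response in siELMO1. It was at 56.9, 61.6 and 58.0 CPM in Mock, 62.2, 58.8 and 62.6 in siNT and 34.7, 34.8 and 36.1 in siELMO1 at 0 h. With poly(I:C) it reached 431, 398 and 424 CPM in Mock, 244, 231 and 323 in siNT and 478, 449 and 499.8 in siELMO1. All siELMO1 libraries were below all others at 0 h and above all others at 24 h, and the siNT libraries were the lowest at 24 h. Against siNT the difference was -0.80 ± 0.09 at 0 h and 0.84 ± 0.09 at 24 h, and the response was larger by 1.64 ± 0.13 than in siNT (edgeR adjusted p = 2.02e-08) and by 0.93 ± 0.13 than in Mock (edgeR adjusted p = 2.83e-05). The gene overlaps TLDC2 on the other strand.

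SAMD9 and SAMD9L, adjacent genes on chromosome 7 whose products block poxvirus translation, were among the most lowered at 24 h in both siRNA groups. SAMD9 was at 250, 253 and 248 CPM in Mock, 214, 196 and 209 in siNT and 141, 169 and 166 in siELMO1 at 0 h. It was at 2416, 2547 and 2670 CPM in Mock, 1179, 1058 and 1327 in siNT and 1517, 1441 and 1742 in siELMO1 at 24 h. The groups did not overlap at either time, from high to low in the order Mock, siNT, siELMO1 at 0 h and Mock, siELMO1, siNT at 24 h. SAMD9L was at 59.3, 63.0 and 61.4 CPM in Mock, 62.9, 60.4 and 63.7 in siNT and 47.1, 54.1 and 53.0 in siELMO1 at 0 h, and after 24 h at 1259, 1320 and 1445 CPM in Mock, 612, 553 and 765 in siNT and 717, 689 and 852 in siELMO1. Against Mock at 24 h, SAMD9 was lower, with a log2 difference of -1.10 ± 0.08 in siNT and -0.70 ± 0.08 in siELMO1 (edgeR adjusted p = 1.3e-08 and 2.53e-06), and SAMD9L, with log2 differences of -1.06 ± 0.10 and -0.83 ± 0.10 (edgeR adjusted p = 1.27e-07 and 2.18e-06). The SAMD9L difference of siELMO1 from siNT at 24 h (0.23 ± 0.10) was not called.

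IFI44, an antiviral protein of the cytoplasm, was at 25.3, 26.9 and 26.2 CPM in Mock, 15.7, 16.4 and 14.8 in siNT and 29.1, 31.8 and 28.3 in siELMO1 at 0 h. Levels of 344, 347 and 355 CPM in Mock, 224, 224 and 251 in siNT and 303, 289 and 321 in siELMO1 were reached at 24 h. It was lower in siNT than in Mock at both times (-0.74 ± 0.06 and -0.58 ± 0.06, edgeR adjusted p = 2.33e-08 and 2.47e-07), so its response in siNT differed from that in Mock by 0.16 ± 0.08, which was not called. Its neighbor IFI44L was at 8.59, 8.10 and 9.27 CPM in Mock, 11.4, 10.4 and 10.8 in siNT and 14.3, 13.7 and 16.1 in siELMO1 at 0 h, and after 24 h at 340.4, 311 and 348 CPM in Mock, 248, 238 and 288 in siNT and 343, 324 and 376 in siELMO1. At 0 h the IFI44L libraries rose in the order Mock, siNT, siELMO1 without overlap, and its response was smaller than in Mock, with a log2 difference of -0.70 ± 0.12 in siNT and -0.70 ± 0.12 in siELMO1 (edgeR adjusted p = 0.000194 and 0.000214). CMPK2, the mitochondrial nucleotide kinase next to RSAD2, had at most 9 counts in any library and was at 0 in all 0 h libraries.

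All 5 genes of ADP-ribosylation moved alike between Mock and siNT: each was higher in siNT than in Mock at 0 h, with a median of 0.45, and lower at 24 h, with a median of -0.43. Between siNT and siELMO1 at 24 h they differed, with 3 higher in siELMO1 and 2 not called, over log2 differences from -0.07 to 0.64. PARP14, a large mono-ADP-ribosyltransferase, was at 95.3, 97.7 and 94.1 CPM in Mock, 136, 116 and 124 in siNT and 96.7, 109 and 104 in siELMO1 at 0 h. It was at 1172, 1208 and 1230 CPM in Mock, 851, 796 and 901 in siNT and 1060, 1033 and 1136 in siELMO1 at 24 h. The siNT libraries were above all others at 0 h and below all others at 24 h (log2 0.39 ± 0.06 and -0.50 ± 0.06 against Mock, edgeR adjusted p = 4.93e-05 and 2.92e-06). PARP9 and DTX3L, partners in one ubiquitin ligase, are transcribed in opposite directions on chromosome 3 with overlapping 5′ ends, and rose by 4.61 ± 0.09 and 3.53 ± 0.08 in Mock, 3.84 ± 0.09 and 2.74 ± 0.08 in siNT and 4.53 ± 0.09 and 3.48 ± 0.08 in siELMO1. At 24 h PARP9 was higher in siELMO1 than in siNT (0.28 ± 0.08) and DTX3L differed by 0.05 ± 0.07, which was not called. PARP10, another mono-ADP-ribosyltransferase, had the largest rise of the 5 in Mock (4.98 ± 0.15), and PARP12, a zinc finger enzyme of stress granules, the smallest (3.03 ± 0.08).

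Of the 4 genes of nuclear bodies and DNA sensing, IFI16, a sensor of nuclear DNA, was the most abundant of the 42 per length at 0 h in Mock and siELMO1, at 99.2 ± 3.60 and 109.9 ± 11.1 CPM per kb, with 61.8 ± 4.72 in siNT. Per gene it was at 268, 285 and 283 CPM in Mock, 174, 170.1 and 175 in siNT and 259, 333 and 338 in siELMO1 at 0 h. It was at 975, 1019 and 1031 CPM in Mock, 627, 601 and 712 in siNT and 835, 839 and 891 in siELMO1 at 24 h. The siNT libraries were the lowest at both times (-0.69 ± 0.08 and -0.64 ± 0.08 against Mock, edgeR adjusted p = 1.4e-06 and 3.6e-06). The IFI16 response was smaller in siELMO1 than in siNT, with a log2 difference of -0.44 ± 0.11 (edgeR adjusted p = 0.00579), with a higher 0 h level in siELMO1.

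PML, the scaffold of nuclear bodies, was at 84.8, 86.6 and 88.3 CPM in Mock, 112, 117 and 110 in siNT and 117, 125 and 129 in siELMO1 at 0 h, and after 24 h at 433, 469 and 479.8 CPM in Mock, 361, 366 and 445 in siNT and 413, 414 and 430.4 in siELMO1. It was higher than Mock at 0 h in both siRNA groups (0.39 ± 0.07 and 0.51 ± 0.07), and its response was smaller, with log2 differences of -0.62 ± 0.09 and -0.65 ± 0.09 (edgeR adjusted p = 7.71e-05 and 6.41e-05). SP110, a nuclear body protein, was at 24.6, 24.4 and 26.1 CPM in Mock, 21.4, 23.4 and 21.0 in siNT and 12.6, 17.8 and 19.5 in siELMO1 at 0 h, and after 24 h at 296, 318 and 320.1 CPM in Mock, 204, 209 and 248 in siNT and 198, 209 and 229.6 in siELMO1. Its siELMO1 libraries were below all Mock libraries at both times (-0.60 ± 0.12 and -0.56 ± 0.11, edgeR adjusted p = 0.000332 and 0.00038). SP100, another constituent of the bodies, was lower in siNT and siELMO1 than in Mock at 24 h, with log2 differences of -0.27 ± 0.06 and -0.36 ± 0.06.

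BATF2, a basic leucine zipper factor that partners with IRF1, had the largest called differences between transfections at 0 h. It was at 5.21, 5.58 and 5.64 CPM in Mock, 20.7, 20.4 and 18.2 in siNT and 5.06, 4.67 and 5.05 in siELMO1 at 0 h. With poly(I:C) it reached 163, 176 and 167 CPM in Mock, 156, 162 and 193 in siNT and 158, 154 and 175 in siELMO1. The siNT libraries stood far above the others at 0 h, and the groups overlapped at 24 h. BATF2 was 3.61-fold higher in siNT than in Mock at 0 h (log2 1.85 ± 0.08, edgeR adjusted p = 1.2e-11) and 4.0-fold lower in siELMO1 than in siNT (log2 -2.00 ± 0.09, edgeR adjusted p = 2.16e-12). At 24 h the same differences were 0.02 ± 0.07 and -0.07 ± 0.07, which were not called, so the response was smaller in siNT than in Mock, with a log2 difference of -1.83 ± 0.11.

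IFI35, a leucine zipper protein that binds NMI, was at 11.0, 12.2 and 13.2 CPM in Mock, 14.8, 14.1 and 15.8 in siNT and 11.9, 12.0 and 9.29 in siELMO1 at 0 h. It was at 319, 320.5 and 348 CPM in Mock, 208, 198 and 253 in siNT and 277, 269 and 297 in siELMO1 at 24 h, with all siNT libraries below all others. NMI, which binds STAT proteins, rose by 2.00 ± 0.09 in Mock, 1.30 ± 0.09 in siNT and 1.62 ± 0.09 in siELMO1. At 24 h IFI35 and NMI were below Mock in siNT, with log2 differences of -0.58 ± 0.09 and -0.62 ± 0.09 (edgeR adjusted p = 4.42e-05 and 1.88e-05). ETV7, a repressor of the ETS family, had at most 17 counts in any library and was detected at 0 h as well as at 24 h.

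All 4 apolipoprotein L genes, which lie near each other on chromosome 22, were below Mock in siNT at 24 h and higher in siELMO1 than in siNT. APOL1, the secreted trypanosome-killing factor, was at 9.39, 10.0 and 10.8 CPM in Mock, 10.7, 10.4 and 11.9 in siNT and 15.0, 13.6 and 13.7 in siELMO1 at 0 h. It was at 207, 181 and 227 CPM in Mock, 109.9, 92.8 and 146 in siNT and 236, 230 and 268 in siELMO1 at 24 h. All siELMO1 libraries were above all others at both times, and siNT was the lowest group at 24 h. APOL1 was 2.10-fold higher in siELMO1 than in siNT at 24 h (log2 1.07 ± 0.12, edgeR adjusted p = 1.08e-06), and its difference from Mock (0.25 ± 0.12) was not called.

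APOL2, an intracellular member, was at 35.4, 35.7 and 37.9 CPM in Mock, 23.2, 21.9 and 21.5 in siNT and 36.9, 31.5 and 34.6 in siELMO1 at 0 h. It was at 222, 236 and 245 CPM in Mock, 127, 125 and 162 in siNT and 209.8, 209 and 228 in siELMO1 at 24 h. The siNT libraries were the lowest at both times (-0.71 ± 0.09 and -0.77 ± 0.08 against Mock, edgeR adjusted p = 2.14e-06 and 6.55e-07), and the interaction was -0.05 ± 0.12, not called. APOL6, which can promote cell death, was at 33.1, 36.8 and 33.7 CPM in Mock, 49.6, 46.9 and 44.9 in siNT and 27.9, 25.6 and 24.5 in siELMO1 at 0 h, and after 24 h at 483, 494 and 495 CPM in Mock, 338, 315 and 402 in siNT and 463, 441 and 535 in siELMO1. In contrast to APOL2, it was highest in siNT at 0 h, and its response was larger in siELMO1 than in siNT by 1.30 ± 0.12 and than in Mock by 0.37 ± 0.12 (edgeR adjusted p = 1.63e-07 and 0.0257). APOL3 rose by 4.16 ± 0.20 in Mock, 2.70 ± 0.19 in siNT and 3.90 ± 0.20 in siELMO1.

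XAF1 was at 0.122, 0 and 0.102 CPM in Mock, 0.912, 0 and 0 in siNT and 0.0408, 0.126 and 0 in siELMO1 at 0 h, where siNT replicate 1 held 61 counts and the other libraries 8 or fewer. At 24 h it was at 239.7, 251 and 247 CPM in Mock, 127, 119.9 and 173 in siNT and 179, 182 and 206 in siELMO1. The siNT libraries were below all others at 24 h (log2 -0.81 ± 0.24 against Mock, edgeR adjusted p = 0.00874), and the siELMO1 difference from siNT (0.43 ± 0.24) was not called. The fitted size of its induction rests on 0 h counts at or near 0, and the 0 h differences between transfections were not called. LAP3, the leucine aminopeptidase that trims peptides, was at 37.2, 35.2 and 36.7 CPM in Mock, 34.2, 35.8 and 32.0 in siNT and 38.8, 37.1 and 38.5 in siELMO1 at 0 h. It was at 359, 349.6 and 385 CPM in Mock, 244, 231 and 315 in siNT and 342, 334 and 372 in siELMO1 at 24 h, lower in siNT than in Mock, with a log2 difference of -0.47 ± 0.08 (edgeR adjusted p = 0.000178). EPSTI1, a gene of epithelial and stromal interaction, had at most 22 counts in any library and was at 0 in all 0 h libraries.

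The transcript table gave the share of each gene's estimated counts that fell on each annotated transcript, a description with no test. ZC3HAV1 is known to make a long protein with a PARP-like end (ZC3HAV1-201, 7177 bases) and, by earlier polyadenylation, a short one without it (ZC3HAV1-204, 3182 bases). The short transcript took 3.92, 4.25 and 5.44% of the counts in Mock, 3.45, 4.28 and 5.32% in siNT and 3.62, 0.980 and 0.620% in siELMO1 at 0 h. At 24 h it took 46.6, 46.0 and 45.8% in Mock, 30.9, 29.3 and 34.3% in siNT and 51.7, 48.4 and 49.0% in siELMO1. Its share was higher at 24 h in every library, and the siNT libraries were below all others at 24 h. The long transcript went from means of 90.5, 88.5 and 94.2% to 47.5, 63.0 and 43.0%.

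Other genes also shifted between transcripts at 24 h. PLSCR1-201 took means of 53.9, 42.5 and 65.4% at 0 h in Mock, siNT and siELMO1, and 84.8, 80.7 and 84.8% at 24 h. Its siNT libraries at 0 h spread widely, at 27.7, 63.2 and 36.7%. PARP9-204 went from means of 7.14, 0.730 and 3.71% to 40.9, 31.0 and 36.5%, with 17.0, 1.74 and 2.67% in the Mock libraries at 0 h. For PLSCR1-201 and PARP9-204 every 24 h library was above every 0 h library. PARP9-205, with the same coding length as PARP9-204 (2457 bases), fell from means of 18.5, 10.2 and 9.78% to 0.69, 0.87 and 1.25%. How the estimate split counts between these similar transcripts was not tested. BATF2-202, whose coding part is 567 bases against 822 in BATF2-201, went from 51.0, 43.6 and 43.5% in Mock, 22.7, 32.3 and 27.1% in siNT and 11.8, 14.0 and 57.7% in siELMO1 to at most 4.72% in any 24 h library. For LGALS3BP, SAMHD1, SP110 and APOL1 the shares differed widely between replicates of 1 group, as in SAMHD1-201 at 63.7, 28.4 and 1.78% in Mock at 24 h, so no shift is given for them.

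**Figure D4:**
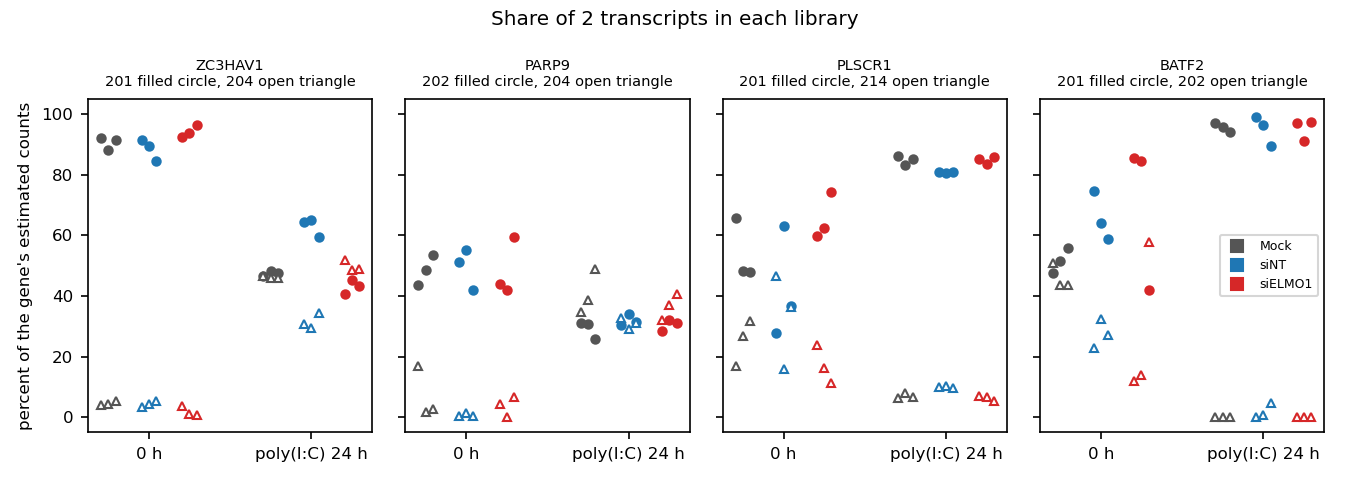
Percent of a gene's estimated counts on 2 of its transcripts in each of the 18 libraries, for ZC3HAV1, PARP9, PLSCR1 and BATF2, at 0 h and after 24 h of poly(I:C), colored by transfection, with filled circles for the first transcript named above each panel and open triangles for the second. The short ZC3HAV1-204 moves from at most 5.44% at 0 h to between 29.3 and 51.7% at 24 h, lowest in siNT.

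Other genes of the interferon pathway, ligands, receptors, sensors, signaling proteins and feedback genes, were read from a list of 34, of which 28 were tested. After poly(I:C) 24 were higher and 2 lower in Mock, where 30.7% and 29.6% of all genes were, 20 and 1 in siNT (28.6% and 25.2%) and 24 and 0 in siELMO1 (28.0% and 26.9%). The higher ones include the interferon genes IFNB1 and IFNL1. These reached the limit on low counts only because of the 24 h libraries, so their inclusion required a difference. In siNT against Mock at 24 h 3 were higher and 12 lower, where 25.2% and 24.9% of all genes were. In siELMO1 against siNT 11 were higher and 4 lower, where 26.0% and 26.5% of all genes were. Their median log2 differences were -0.18 and 0.13.

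Of the 8 ligands listed, 3 were tested. IFNB1, interferon beta, was at 0 in 8 of the 9 libraries at 0 h. It was at 20.4, 21.3 and 27.5 CPM in Mock, 1.70, 1.43 and 1.91 in siNT and 5.81, 5.52 and 11.6 in siELMO1 at 24 h. The 3 groups did not overlap, and IFNB1 was lower in siNT than in Mock, with a log2 difference of -3.78 ± 0.32, and higher in siELMO1 than in siNT by 2.18 ± 0.31 (edgeR adjusted p = 4.91e-07 and 5.1e-05), while siELMO1 stayed below Mock, with a log2 difference of -1.60 ± 0.29 (edgeR adjusted p = 0.000506). IFNL1, interferon lambda 1, was at 7.75, 7.59 and 8.29 CPM in Mock, 0.459, 0.679 and 0.770 in siNT and 2.58, 2.08 and 3.76 in siELMO1 at 24 h, again without overlap. IFNE, interferon epsilon, was at 1.09, 0.696 and 1.44 CPM in Mock, 1.47, 1.63 and 2.07 in siNT and 0.470, 0.606 and 0.919 in siELMO1 at 24 h. All siNT libraries were above all others, with a difference from Mock of 0.68 ± 0.34 that was not called, and lower in siELMO1 than in siNT, with a log2 difference of -1.38 ± 0.34 (edgeR adjusted p = 0.0027).

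Of the 6 sensors and adaptors, 4 were below Mock in siNT at 24 h and 1 was above it. RIGI, which detects short double-stranded RNA, was below Mock in siNT at 24 h, with a log2 difference of -0.96 ± 0.11, IFIH1, which encodes MDA5, with a log2 difference of -0.62 ± 0.10 and DHX58, their regulator LGP2, with a log2 difference of -1.29 ± 0.14. These 3 were higher in siELMO1 than in siNT, by 1.02 ± 0.11, 0.51 ± 0.10 and 0.71 ± 0.13. MAVS, the mitochondrial adaptor of RIG-I and MDA5, was higher in siNT than in Mock by 0.49 ± 0.06 and higher in siELMO1 than in Mock by 0.41 ± 0.06 (edgeR adjusted p = 5.71e-06 and 4.8e-05). TICAM1, the adaptor of TLR3, was lower in siNT than in Mock, with a log2 difference of -0.19 ± 0.07. STAT2, a part of ISGF3, was lower in siNT than in Mock, with a log2 difference of -0.51 ± 0.08. IRF9, the DNA-binding part of ISGF3, was at 103, 75.4 and 104 CPM in Mock, 77.3, 101 and 116 in siNT and 52.9, 48.9 and 48.2 in siELMO1 at 24 h, with all siELMO1 libraries below all others. IRF9 was below both other groups in siELMO1, with log2 differences of -0.91 ± 0.16 and -0.97 ± 0.16 (edgeR adjusted p = 0.000149 and 6.14e-05), a direction opposite to that of the 27 called genes against siNT.

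Of the feedback genes, USP18, which removes ISG15 and silences the interferon receptor, was at 21.8, 23.1 and 23.1 CPM in Mock, 8.62, 10.3 and 9.63 in siNT and 10.1, 10.4 and 10.8 in siELMO1 at 0 h. Both siRNA groups were below Mock there (-1.25 ± 0.08 and -1.12 ± 0.08) and at 24 h (-0.60 ± 0.08 and -0.57 ± 0.08). SOCS1, an inhibitor of JAK kinases, was at 4.65, 3.25 and 3.21 CPM in Mock, 9.01, 8.62 and 9.87 in siNT and 2.12, 2.54 and 1.48 in siELMO1 at 0 h, highest in siNT, and differed between transfections by 0.15 ± 0.16 and 0.01 ± 0.16 at 24 h, which were not called.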

How the data were processed

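RNA-seq libraries (poly(A) RNA, stranded kit, paired ends) were made from 6 groups of 3 biological replicates of EA.hy926. Per the labels and the study's methods, the authors aligned reads to GRCh38 with STAR, estimated transcripts of GENCODE v44 with StringTie and derived with its prepDE script the deposited estimated counts of genes and transcripts. These are whole numbers worked back from coverage, so reads shared by paralogs or overlapping genes are split by the estimate. Whether the counting used strand is not given in the sources used here.

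The limit on low counts was that of the study: 100 counts summed over the libraries and 1 CPM in the highest library (15167 of 62754). Counts were scaled by TMM factors and tested in edgeR 4.0.16 (R 4.3.3) with glmQLFit and glmQLFTest over all 18 libraries, 1 mean per group, with Benjamini-Hochberg adjustment over all tested genes within each comparison. The biological coefficient of variation was 12.2%, and a count of 0 allows up to 0.0383 to 0.0752 CPM (3 counts, counting error only). The study's own tests used limma and dream on voom values. Gene identity, position and transcript names came from GENCODE v44, and promoter sequence from RefSeq GRCh38.p14. The recovery of known fold changes was tested on simulated counts.

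The 42 genes, their role groups and the pathway and marker lists were chosen with earlier results of these data known, and a few listed genes are not reported here by name. Values in every library are given for the 3 genes with the largest called change in each direction of each of 9 comparisons, the 2 largest in each direction of each of 3 differences in response, the gene with the highest mean level in each role group and the genes under the limit on low counts. Alternatives were DESeq2 1.42.0, limma-voom (limma 3.58.1), library totals, upper-quartile factors, no limit on low counts, filterByExpr, only the groups compared, the replicate number as a block and leaving out each library. A fit of the 24 h libraries with the block was added after seeing the data. Same-numbered Mock and siNT libraries at 24 h deviated together over 11033 genes of at least 5 CPM (r of 0.162, 0.229 and 0.192). In the other compared groups at least 1 of the 3 correlations was at or under 0.1. The main fit did not use the numbers as pairs for any comparison. The block entered only alternatives, over all libraries or over all 24 h libraries, siELMO1 included.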

Additional observations from a re-analysis of the deposited data

Results flagged for a closer look

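The poly(I:C) responses listed here differed between transfections by the interaction test of edgeR, each response resting on 3 libraries at 0 h and 3 at 24 h. The BST2 response was smaller in siNT than in Mock, with a log2 difference of -2.11 ± 0.71 (edgeR adjusted p = 0.031). That call rests on 6 to 27 counts a library at 0 h in these groups and was lost with limma-voom (adjusted p = 0.306), with only the groups compared, and without any 1 of Mock 0 h replicates 2 and 3 and siNT 0 h replicates 2 and 3. The RTP4 response was smaller in siNT than in Mock, with a log2 difference of -1.93 ± 0.36 (edgeR adjusted p = 0.000495), with all siNT libraries above all Mock libraries at 0 h.

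Between siELMO1 and siNT, the BATF2 response was larger in siELMO1 by 1.93 ± 0.11 (edgeR adjusted p = 8.16e-10), with the groups apart at 0 h and overlapping at 24 h. The SAMHD1 response was larger by 1.64 ± 0.13 (edgeR adjusted p = 2.02e-08), and all siELMO1 libraries were below siNT at 0 h and above it at 24 h. The responses of IFI44 and IFI16 were smaller in siELMO1, with log2 differences of -0.54 ± 0.08 and -0.44 ± 0.11 (edgeR adjusted p = 8.18e-05 and 0.00579).

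Between siELMO1 and Mock, the response was larger for SAMHD1 by 0.93 ± 0.13 and for LY6E by 0.58 ± 0.16 (edgeR adjusted p = 2.83e-05 and 0.0121). It was smaller for IFI44L, with a log2 difference of -0.70 ± 0.12 and for PML, with a log2 difference of -0.65 ± 0.09 (edgeR adjusted p = 0.000214 and 6.41e-05).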

How the results depend on the processing

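In 27 alternative settings, 312 of 315 counts of called genes stayed within 1.5 times the reported ones. The exceptions were siELMO1 against Mock at 24 h, with 15 called, 9 without siELMO1 24 h replicate 2 and 25 over the 24 h libraries with the replicate number as a block, and the difference in response between siELMO1 and Mock, with 15 called and 9 without Mock 0 h replicate 2. The cause was not tested. Of 58 results for single genes, 52 kept their call in every alternative and none reversed. The other 6 concern BST2, RTP4, LGALS3BP, EIF2AK2 and SHISA5 and lost their call in 36 of 1517 values. DESeq2 gave 38 called for each poly(I:C) comparison because it gave no adjusted p for XAF1.

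With 1 library left out, the count was 39 throughout for each poly(I:C) comparison, 18 to 27 and 30 to 36 for siNT against Mock at 0 h and 24 h, 25 to 30 and 22 to 30 for siELMO1 against siNT, and 14 to 18 and 9 to 20 for siELMO1 against Mock. For the differences in response it was 27 to 32 for siNT against Mock, 27 to 31 for siELMO1 against siNT and 9 to 16 for siELMO1 against Mock.

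With the replicate block over all libraries, the counts were 39, 39 and 39 for poly(I:C), 25 and 34 for siNT against Mock, 28 and 28 for siELMO1 against siNT, 20 and 18 for siELMO1 against Mock, and 31, 30 and 16 for the responses. Over the 24 h libraries alone, a fit chosen after seeing the data, they were 37, 32 and 25. Depth limits BST2 and XAF1 at 0 h and CMPK2, ETV7 and EPSTI1 throughout. To a lesser degree it limits RTP4 at 0 h, with 17 to 91 counts a library.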
